A study of Mus musculus with 6 samples.

Results

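The genes described here are Afp, Gpc3, Dlk1, H19, Igf2, Mest and Peg3, which are oncofetal liver genes or carry a parental imprint. They were chosen by symbol, after their ratios of tumor over reference and the spread of those ratios over the 6 tumors had been seen. Every non-control probe whose printed gene name equalled 1 of the 7 names was used, in all tumors and in both dyes, which gave 12 probes on 30 spots for 7 of the 27575 gene names on the array. Levels and the spread between tumors are therefore given as a description, with no test.

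The mouse hepatoma line Hepa1-6 was injected subcutaneously into female mice of the strain C57Bl/6, and the labels name no treatment. The number of cells inoculated was the same for every tumor. Day 10 tumors were those numbered 302, 307 and 312, and day 15 tumors 303, 313 and 318. Each tumor's RNA carried the dye Cy5 on its own 2-colour Agilent array, and a reference labelled as blood RNA of an untreated C57Bl/6 mouse carried Cy3. Dyes were not swapped, and ratios can hold a bias of the dyes. All day 10 arrays lay on 1 slide and all day 15 arrays on another, so slide and day cannot be told apart. The labels do not say that the tumors came from separate animals, and p-values measure only the spread between these tumors. In whole tumors, fewer hepatoma cells and less RNA per hepatoma cell cannot be told apart.

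Alpha-fetoprotein, the product of Afp, is a serum protein of the fetal liver and yolk sac, and is silenced in hepatocytes after birth. Glypican-3, from Gpc3, is a cell-surface proteoglycan that tunes Wnt, hedgehog and growth factor signals. Igf2 encodes a fetal growth factor and is read from the paternal chromosome, whereas its neighbour H19, a long noncoding RNA, is read from the maternal one under the same control region. Dlk1, a membrane protein related to Notch ligands and also known as the preadipocyte factor, Mest, a hydrolase of mesoderm, and Peg3, a zinc finger protein, are paternally expressed.

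The starts of Afp and Gpc3 are shown first, because these 2 oncofetal genes parted in a single tumor. Both sequences are the 250 bases before the RefSeq gene start on build GRCm38.p6, Afp at chr5:90490464-90490713 on the plus strand and Gpc3 at chrX:52613975-52614224 on the minus strand. Capitals mark each CpG, the dinucleotide that carries DNA methylation in mammals.

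Afp: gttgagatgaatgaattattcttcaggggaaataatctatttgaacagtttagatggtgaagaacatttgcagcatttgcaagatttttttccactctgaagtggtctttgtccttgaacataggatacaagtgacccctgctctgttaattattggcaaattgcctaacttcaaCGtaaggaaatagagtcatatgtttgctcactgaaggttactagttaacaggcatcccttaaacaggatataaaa
Gpc3: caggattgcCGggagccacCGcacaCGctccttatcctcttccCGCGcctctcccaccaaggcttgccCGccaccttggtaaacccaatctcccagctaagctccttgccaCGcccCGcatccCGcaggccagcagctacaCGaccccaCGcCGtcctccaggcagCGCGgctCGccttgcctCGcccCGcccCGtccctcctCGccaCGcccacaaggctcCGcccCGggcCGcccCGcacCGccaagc

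The windows differed in composition. That of Afp held 1 CpG, 75 bases before the gene start, and that of Gpc3 held 25. Of 32851 RefSeq windows of the same length, 18.8% held 1 CpG or none and 10.7% held 25 or more, with a median of 6. Afp had 36.0% G and C and Gpc3 71.6%, with a median of 52.4% over all windows. The FOXA core TGTTTAC, searched on both strands, was in 3.17% of all windows, in neither of these, and 2 times in that of Dlk1. Windows were found for 6 of the 7 genes. These counts describe letters and are no measurement of binding or methylation.

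Ratios are given as log2 of tumor over reference after loess normalization, and signals as log2 of each dye after scaling between arrays. A spot is called well above background by the scanner software's own flag. Signals of different probes are not compared with each other. By that flag, 52.4% to 58.5% of an array's spots had tumor signal and 47.5% to 52.8% reference signal. On the array of tumor 312, an oval area of lost signal covered 6239 spots (13.9%), and it held the probes standing for Dlk1, H19 and Peg3, 3 of the 9 Afp spots used and 2 of the 10 Igf2 spots. No such area was found on the other arrays.

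**Figure D1:**
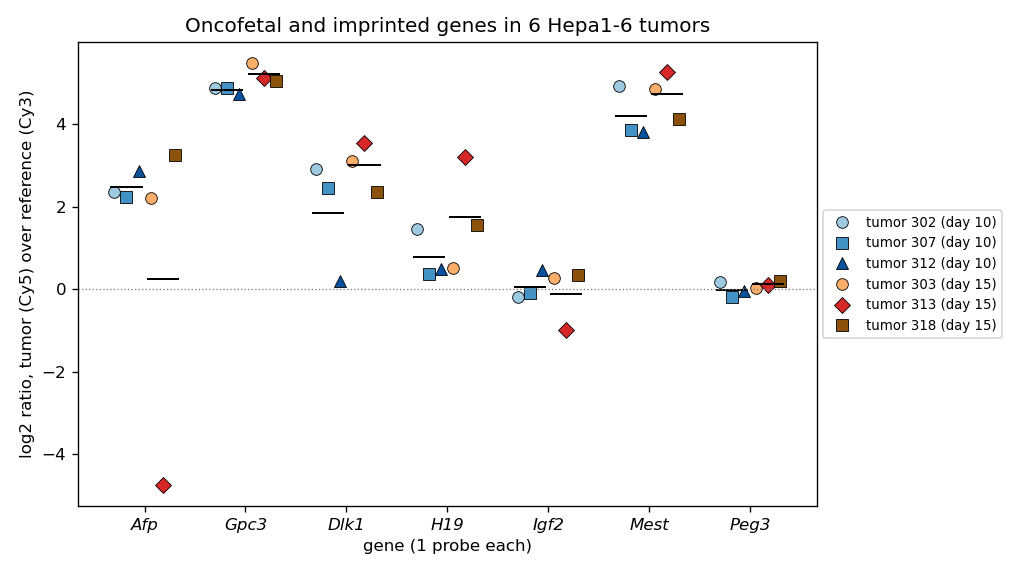
The log2 ratio of tumor over reference (vertical axis) for each of the 7 genes (horizontal axis), with 1 point per tumor, blue for day 10 and orange to red for day 15, and bars at the mean of each day. Afp sat at -4.75 in tumor 313 and between 2.22 and 3.25 in the others, whereas the lowest Gpc3 and Mest values were 4.73 and 3.81.

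Gpc3 was the steadiest of the genes well above the reference. Its log2 ratios were 4.89, 4.90 and 4.73 in day 10 tumors 302, 307 and 312, and 5.48, 5.13 and 5.04 in day 15 tumors 303, 313 and 318. The mean was 5.03 ± 0.26 (SD, n = 6), a 32.6-fold ratio on the linear scale. The reference was well above background for Gpc3 on all 6 arrays. Mest was at 4.93, 3.86 and 3.81 in the day 10 tumors and 4.85, 5.26 and 4.14 in the day 15 tumors, with a mean of 4.48 ± 0.61 (SD, n = 6). Its reference signal was above background on 3 of 6 arrays, so the size of the Mest ratio is less secure. Gpc3 and Mest were the 2 members with a log2 ratio of at least 1 on every array, as were 14.9% of 16307 genes measured in either dye. Both kept this in tumor 313. With Dlk1 and H19, 4 members were above 0 on every array, as were 43.4% of genes, and 0 were at or below -1 on every array, as were 4.19%.

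Afp had the widest spread. The ratio was 2.36 in tumor 302, 2.23 in 307, 2.86 in 312, 2.22 in 303, 3.25 in tumor 318 and -4.75 in tumor 313. The other 5 tumors lay close together, and tumor 313 minus their mean was -7.33 on the log2 scale. Of 15804 genes tested between the days, 0.943% were lowest in tumor 313 by more than 2 log2 units.

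Both dyes moved in the Afp ratio. In Cy5, the Afp signal was 18.38, 18.26 and 18.23 at day 10, and 18.41 and 18.69 in tumors 303 and 318, but 12.47 in tumor 313, a difference of -5.92 to the mean of the rest. In Cy3 the reference signal of Afp was 16.02, 16.04 and 15.37 at day 10. At day 15 it was 16.19 beside tumor 303, 17.22 beside tumor 313 and 15.44 beside tumor 318. The array with the lowest tumor signal thus had the highest reference signal, 1.41 above the mean of the other arrays. The reference bears the same label on every array, and the SD of the Afp reference signal, 0.67, was larger than that of 94.7% of the 11816 genes well above background in Cy3 throughout, whose median SD was 0.21. What moved the reference signal was not tested. From the tumor dye alone, after quantile normalization, tumor 313 still lay at -6.11 against the others.

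The reference labelled blood thus carried Afp signal well above background on all 6 arrays. The same holds for Gpc3 and Igf2, so ratios of these genes are set against an RNA with signal of its own. Ratios of the related genes below are set against the same reference, whose signal for them is not given. A ratio near 0 there does not mean a low tumor signal. Dlk1 was above background in the reference on 0 arrays with either of its probes.

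**Figure D2:**
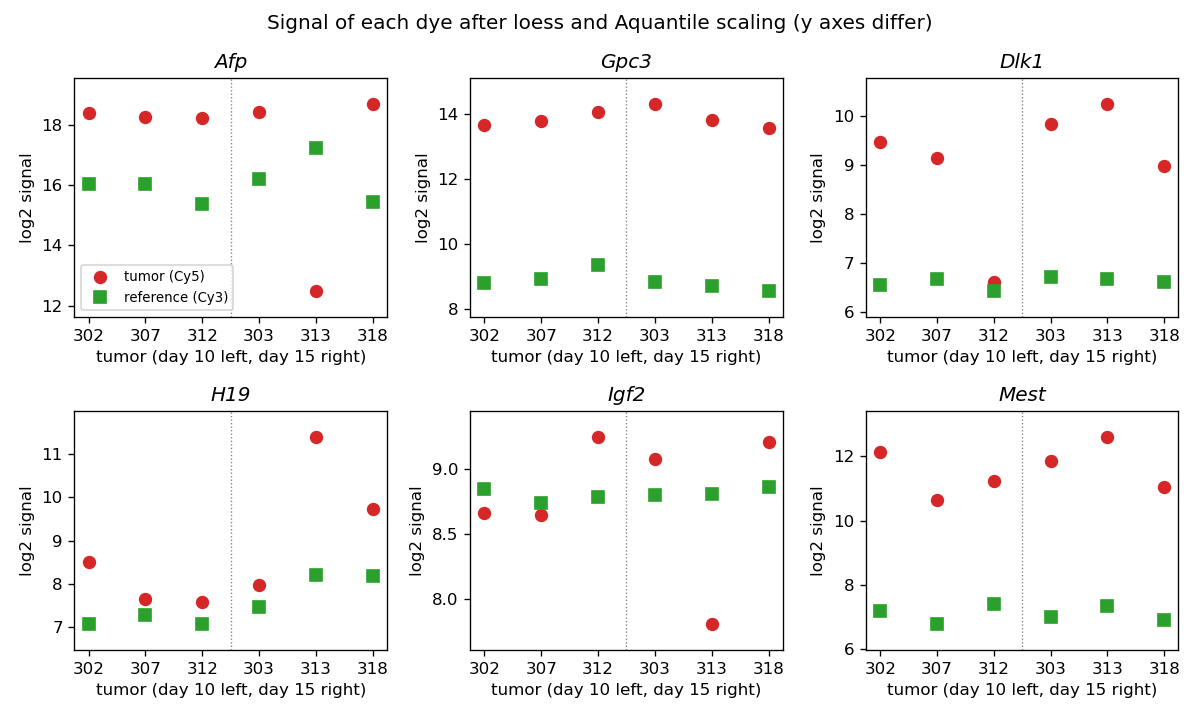
Signal of the tumor dye (red circles) and the reference dye (green squares) on a log2 scale for 6 genes in each tumor, with day 10 tumors left of the dotted line. On the array of tumor 313 the Afp tumor signal is 12.47 and the reference signal 17.22. The Igf2 reference signal, a mean over spots inside and outside the lost area for tumor 312, stays between 8.74 and 8.86.

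Afp and Igf2 were each printed as 10 spots of 1 probe, which shows the error of a single array. On the 5 arrays other than that of tumor 312, the SD of the Afp spot ratios was between 0.04 and 0.12. In tumor 313 the 10 Afp spots lay between -4.80 and -4.66, so its low value did not come from a single spot. On the array of tumor 312, the 3 Afp spots inside the lost area had a mean Cy5 signal of 16.97, against 18.86 for the 6 outside, and a mean Cy3 signal of 14.48 against 15.81. Their mean ratio was 2.49, against 3.05 ± 0.06 (SD, n = 6 spots) outside. Tumor signal was lost there by more than reference signal, and a ratio read from inside the area was lower.

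Igf2 spots showed the same on that array. The 2 spots inside the area had a mean ratio of -0.15 and the 8 outside 0.62, with mean Cy5 signals of 6.68 and 9.89. On the array of tumor 318, 9 Igf2 spots lay between 0.66 and 0.87, with a mean of 0.75, and a single spot lay at -3.30. That spot had a local Cy5 background of 956, where the other 9 had at most 115 and the median of the array was 112.5. It carried no outlier mark and stayed in the mean.

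**Figure D3:**
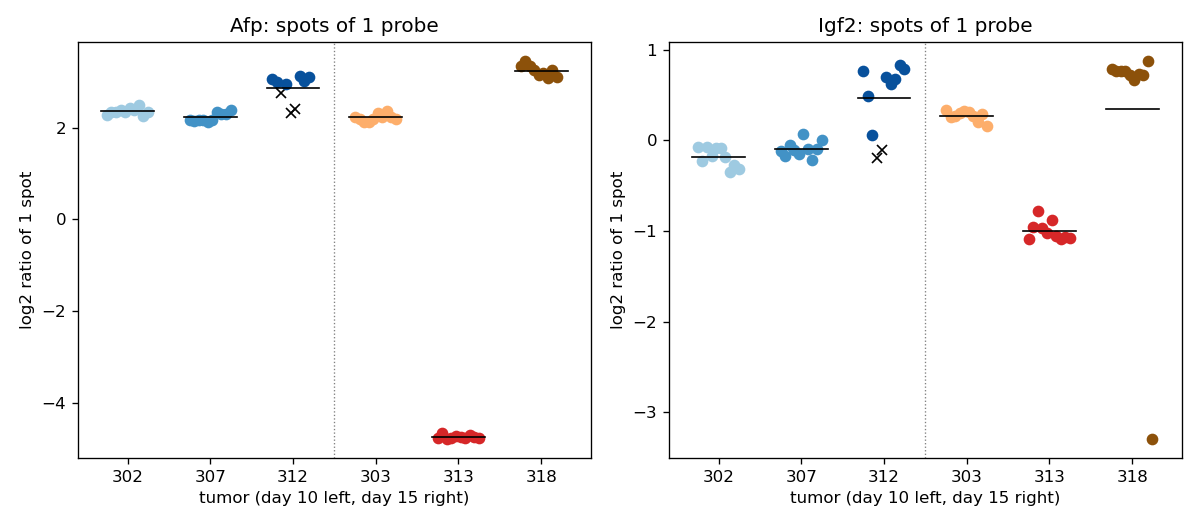
The log2 ratio of every used spot of the Afp probe (left) and the Igf2 probe (right) in each tumor, with bars at the mean; crosses are spots in the area of lost signal on the array of tumor 312. All Afp spots of tumor 313 lie between -4.80 and -4.66, and 1 Igf2 spot of tumor 318 lies at -3.30, apart from the other 9.

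Igf2 itself was close to the reference in most tumors and low in tumor 313. Its ratios were -0.18, -0.09 and 0.46 in tumors 302, 307 and 312, and 0.27, -1.0 and 0.35 in tumors 303, 313 and 318. The mean was -0.03 ± 0.54 (SD, n = 6). Tumor 313 minus the mean of the others was -1.16, and -1.32 with the median of the spots in place of their mean, a choice made after seeing the stray spot. The Igf2 reference signal, a mean over spots, had an SD of 0.043, among the lowest 1.23% of genes. On the array of tumor 312 this mean joined 9.27 for the 8 spots outside the lost area and 6.83 for the 2 inside. The small SD is thus in part a product of averaging. On the other arrays the reference signal lay between 8.74 and 8.86, so the ratios there follow the tumor dye. Cy5 was 7.81 in tumor 313 and 8.65 to 9.24 in the others. The second Igf2 probe, a single spot, had ratios of -0.39, -0.30, 0.25, -0.33, -0.73 and 0.25 in the same order of tumors, lowest in tumor 313 as well.

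H19 went the other way in that tumor. Tumors 302, 307 and 312 had ratios of 1.45, 0.36 and 0.50. The ratio was 0.52 in tumor 303, 3.20 in tumor 313 and 1.57 in tumor 318. The second H19 probe gave 1.0, 0.55 and 1.41 at day 10 and 0.23, 3.34 and 1.73 at day 15, and it lies outside the lost area in tumor 312. Both probes put tumor 313 highest and tumor 318 next, with tumor 313 above the mean of the others by 2.32 and 2.36. Of all genes tested, 34.6% were highest in tumor 313. In Cy5 signal alone, H19 was 11.40 in tumor 313, 9.74 in tumor 318 and 7.57 to 8.51 in the other 4. The reference was above background on 0 of 3 day 10 arrays with either probe. A bound there set the tumor mean against the higher of the probe's own reference signal and the lowest signal above background on each array. For the first H19 probe it was 1.71-fold, which is its mean measured ratio at day 10 (0.77 on the log2 scale). Tumors 307 (0.36) and 312 (0.50) lay below that mean, and the spot of tumor 312 was in the lost area. On the array of tumor 303, the Cy3 signal of the second probe was 8.64, against 6.95 to 7.48 on the others.

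Thus in tumor 313 Igf2 was the lowest and H19 the highest of the 6 tumors. Of all genes tested, 30.2% were lowest and 34.6% highest there, so a place at either end was common. In tumor 318 both Igf2 (0.35) and H19 (1.57) lay above their means. No relation between them was tested over these 6 tumors.

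Dlk1 had a ratio above 0 in every tumor, but the brighter probe's value in tumor 312 came from a spot in the lost area. Neither dye was above background in that spot, so its ratio shows no excess over the reference. The ratios of the brighter probe were 2.91 and 2.45 in tumors 302 and 307, 0.19 in tumor 312, and 3.12, 3.56 and 2.37 in tumors 303, 313 and 318. Over the 5 tumors without 312, the mean was 2.88 ± 0.49 (SD, n = 5). The second probe, which lay outside the area, gave 0.89, 0.55 and 0.56 at day 10 and 1.44, 1.46 and 0.73 at day 15, with tumor 312 level with tumor 307. Its Cy5 signal was not above background in tumors 307 and 318. No Dlk1 probe was above background in the reference. By the bound used for H19, the brighter probe's mean was at least 4.55-fold over the reference across the 6 tumors, and at least 6.39-fold without tumor 312. Tumor 312 itself had a Cy5 signal of 6.61, not above background, and meets no such bound. The limit is the lowest flagged signal of an array, and some signals above it carried no flag, so the bounds may be too high. The second probe had a mean ratio of 1.92-fold, so these bounds hold for the brighter probe only. The brighter probe's bound was 7.04-fold at day 15 and 2.94-fold at day 10, where the spot in the lost area was counted. These 2 bounds are therefore no comparison of the days. No dye swap backs these bounds.

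Peg3 was hardly detected. Its 3 probes had mean ratios of 0.05, -0.06 and 0.01 over the 6 tumors. The brightest was above background in Cy5 on 2 of 6 arrays and the others on 0, so Peg3 did not enter the test between the days. On the array of tumor 303 the brightest probe was bright in both dyes alike, at 8.90 in Cy5 and 8.86 in Cy3, where Cy5 was 6.31 to 7.29 on the others.

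Of the 6 members tested, 3 spanned more than 2 log2 units over the tumors, Afp with 8.0, Dlk1 with 3.37 and H19 with 2.84, against 7.93% of all genes. The median span of all genes was 0.72. For Dlk1 the low end was the spot in the lost area.

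The comparison of the days asked whether these genes changed as the tumors grew from day 10 to day 15. None of the 6 members tested passed limma's test at a Benjamini-Hochberg adjusted p of 0.05, and 0 had an unadjusted p under 0.05. Of all 15804 genes, 9 passed (0.0569%), 2 of them higher (0.0127%) and 7 lower (0.0443%) at day 15, and 369 were higher and 241 lower at an unadjusted p under 0.05. Each member had a limma adjusted p of 0.999, and with 3 tumors a day an exact permutation test cannot give a 2-sided p under 0.1.

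Gpc3 came closest. Its mean ratio was 4.84 ± 0.10 (SD, n = 3) at day 10 and 5.22 ± 0.23 (SD, n = 3) at day 15, a difference of 0.38 (95% confidence interval -0.02 to 0.78, unadjusted p 0.0596 by limma across all genes). The days did not overlap, as was so for 9.14% of all genes. It was 0.25 without tumor 303. The Cy5 signals overlapped between the days, at 13.68, 13.80 and 14.07 at day 10 and 14.31, 13.82 and 13.58 at day 15. A separate fit of the tumor dye alone, after quantile normalization, gave a difference of 0.09, and median centring in place of loess gave 0.03.

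For the other 5 the days overlapped. Afp differed by -2.24 (95% confidence interval -7.09 to 2.60), which rested on tumor 313: without it, the difference was 0.25. Dlk1 was higher at day 15 by 1.17 (interval -0.61 to 2.94), and by 0.34 without the spot in the lost area. H19 differed by 0.99 (interval -0.67 to 2.65), by 0.27 without tumor 313 and by 1.61 without tumor 303. With the scanner's processed signals the H19 difference was 0.21. Mest differed by 0.55 (interval -0.44 to 1.53). Without tumor 302 the Mest difference was 0.91, without tumor 318 0.85, without tumor 312 0.35 and without tumor 313 0.29, and it was 0.18 with the scanner's processed signals and 0.16 with median centring. Igf2 differed by -0.19 (interval -1.16 to 0.78). Every one of these intervals includes 0, and those of Afp, Dlk1 and H19 also include changes of more than 2 log2 units.

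The genes around the members were taken from 9 lists. These held factors that switch Afp or other liver genes off or on, and genes of the albumin family with other liver genes. They also held the partners of Igf2, Gpc3 and Dlk1, and other imprinted genes. None of the genes tested in these lists passed between the days, with limma and adjustment over all genes. The Notch receptors and targets were higher at day 15 in 9 of 10, with a median of 0.44 where that of all genes was 0.02, and 4 had an unadjusted p under 0.05. The median was 0.14 with median centring, 0.21 in the tumor dye alone and 0.24 with no filter on dim probes. Dll4, a Notch ligand of vessel tips, was at 1.40, 0.81 and -0.05 at day 10 and 1.80, 1.71 and 1.79 at day 15. Hey1, a target of Notch, was at 3.67, 3.14 and 3.41 and then at 4.58, 4.70 and 3.63, and Notch3, a receptor of mural cells, at 2.63, 1.91 and 2.25 and then at 2.89, 3.52 and 3.02. Endothelial markers were higher at day 15 in 6 of 6 (median 0.79), with a summed Cy5 signal of 7046 to 13694 at day 10 and 13785 to 23820 at day 15; their part in the Notch values was not tested.

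Other imprinted genes were higher at day 15 in 18 of 24, with a median of 0.23 and 1 unadjusted p under 0.05. The median was 0.11 without tumor 312 and turned to -0.17 with median centring. Plagl1, a zinc finger gene of an imprinted network, was at 4.36, 4.84 and 4.21 at day 10 and 6.04, 6.85 and 4.34 at day 15. Dio3, a thyroid hormone-inactivating enzyme gene in the same imprinted cluster as Dlk1, went the other way, from 4.44, 4.47 and 3.0 to 1.61, 3.55 and 2.61. Peg12 was at 1.88, 1.49 and 0.26 and then at 1.54, 3.02 and 1.28. Neither direction passed the test. Of 35 such genes on the array, 8 were not above background on any array, among them Peg10, Phlda2 and Magel2.

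The insulin-like growth factor axis had a median difference of 0.21 over 12 genes, 8 of them higher at day 15. It was 0.06 without tumor 312, 0.05 without tumor 303 and -0.12 with median centring. Igfbp1, a liver binding protein, was at 2.59, 2.95 and 2.23 at day 10, and at 2.35, -4.02 and 3.38 in tumors 303, 313 and 318, so that tumor 313 alone lay below the reference. Igf1r, the receptor through which Igf2 signals, was at 3.87, 3.63 and 1.94 at day 10 and 3.86, 4.33 and 2.95 at day 15. Igfbp3 was at 0.55, 1.17 and -0.14 and then at -0.14, -0.94 and 0.21. The 8 glypicans and partners tested had a median of 0.15, which was 0.04 without tumor 313 and turned below 0 without tumor 312 (-0.10), without the lost area (-0.0019) and with median centring (-0.33). Gpc1 spanned -0.55 in tumor 303 to 1.46 in tumor 313, Gpc6 lay between 0.28 and 1.86, Fzd7, a Wnt receptor, between -0.26 and 0.82, and Dpp4 between 3.20 and 4.75. The 11 genes of imprint maintenance and DNA methylation had a median of 0.09, which was 0.0035 without tumor 307, 0.01 without tumor 313, -0.0053 without tumor 318 and -0.25 with median centring. Among them, Dnmt3a, a methyltransferase, was highest in tumor 313 at 2.66 and lay between 1.07 and 1.88 in the rest. Zfp57, which holds imprints, was lowest there at -1.56, with the rest between -0.68 and -0.51. Dnmt3l, a cofactor of methylation, lay between -0.06 and 2.18, lowest in tumor 312, and Tet2, a methylcytosine oxidase, between -0.01 and 0.59.

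Among the 14 hepatocyte and endoderm activators, 11 were lower at day 15, with low values in tumor 313. Their median difference of -0.19 turned to 0.26 without tumor 313, and was -0.06 without tumor 312 and -0.51 without tumor 318. Foxa2, a pioneer factor of liver genes, had ratios between -0.48 and 0.00 in the other 5 tumors and -5.71 in tumor 313. Foxa3 lay between -0.80 and -0.20 and at -3.75, and Prox1, a factor of fetal hepatoblasts and lymph vessels, between -0.25 and 1.21 and at -2.49. In this list 10 of 14 genes were lowest in tumor 313, where 30.2% of all genes were, and 6 lay more than 2 log2 units under the mean of the others. Foxa2, the lowest, differed by -5.45 and Gata6, the highest, by 1.40.

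The albumin family and the other liver genes listed with it were lowest in tumor 313 in 10 of 10, where 30.2% of all genes were. The median difference to the mean of the other tumors was -3.18. For 7 of the 10 it was below -2, and for Trf it was only -0.20, with 2.135 in both tumor 313 and tumor 307. Ambp, which encodes a plasma protein precursor, was at 7.17 to 7.93 in the others and -0.99 in tumor 313. Fgb, the fibrinogen beta chain, was at 3.19 to 4.04 and -2.59. Between the days the list had 5 genes higher and 5 lower, with a median of -0.30 that became 0.62 without tumor 313. Of the 7 listed repressors of Afp or of other fetal liver genes, 5 were tested, and Zhx2 and Nr2f1 were not. Of the 5 tested, 4 were lowest in tumor 313, and Zhx3 was highest, at 2.25 against 0.09 to 2.0. Nr2f2, a nuclear receptor, was at -0.31 against 0.45 to 1.28, and Trp53 at -1.29 against -1.10 to -0.60. The liver progenitor and hepatoma genes split, with 8 of 19 lowest and 8 highest in tumor 313 and a median difference of 0.07. Krt19 was highest there at 3.61 (0.29 to 2.63 in the rest), and Spp1, osteopontin, at 1.88 (-1.89 to 0.86). Krt8 at -2.98 (-0.64 to 0.03) and Sox9 at -1.94 (-0.33 to 0.72) were lowest.

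**Figure D4:**
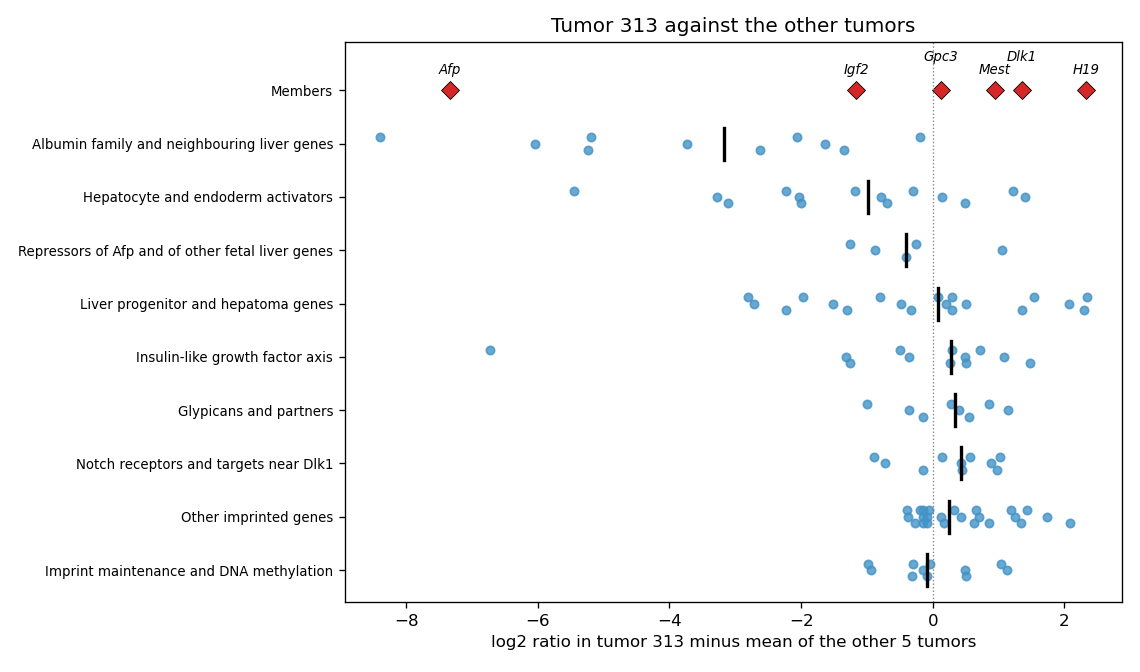
The log2 ratio in tumor 313 minus the mean of the other 5 tumors (horizontal axis) for 6 members (red diamonds) and for the genes of 9 related lists (blue points, 1 per gene), with a bar at each list's median. Afp lies at -7.33 among the lowest genes of the albumin family list, and H19 at 2.32 lies at the other end.

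Markers of several cell types stood apart in tumor 313. The share of all genes past the cuts of 1 and 2 log2 units from the mean of the others was not counted. The 8 markers used for the hepatoma line are all genes of the albumin family, activator and progenitor lists above. Other genes of those lists, such as Krt19 and Gata6, were highest in tumor 313. All 8 markers were lowest there, as were 30.2% of all genes. They were lower by more than 2 log2 units, with a median of -4.47. Their summed Cy5 signal was 58248, against 463926 to 729966 in the others. Of the 7 adipocyte markers, 6 were highest in tumor 313, as were 34.6% of all genes, and Dlk1 is a known gene of preadipocytes. All 7 markers, among them Cebpa of the activator list, were higher by more than 1, with a median of 1.22. Their summed Cy5 signal was 292714 in tumor 313 and 265682 in tumor 303, against 27917 to 101035 in the rest. The 12 fibroblast and pericyte markers had a median of 0.80 above the others and the highest summed signal, at 1254700 against 516985 to 1002070. The part of these cells in the values of H19, Dlk1, Mest and Igf2 was not tested. Gpc3 at 5.13 in tumor 313 was as high as in the other tumors (4.73 to 5.48) while these 8 hepatoma markers were low.

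Muscle, another tissue in which imprinted genes are active, marked the days. All 7 markers of mature skeletal muscle were lower at day 15 (median -3.92), and 4 passed limma's test over all genes, Tnnc2, Myh4, Acta1 and Myh1. Their summed Cy5 signal was 21547 to 168765 at day 10 and 882 to 1845 at day 15. In tumor 313, 6 of the 7 lay more than 2 log2 units under the mean of the others, of which 3 were day 10 tumors. Of the 10 genes of muscle precursors and regenerating muscle, 3 were tested: Myh8, a perinatal myosin, fell from 5.84, 5.11 and 5.50 to 0.88, 0.20 and 0.12 (limma adjusted p 0.00581), Des was at 3.04, 1.13 and 2.46 and then at most 1.36, and Ncam1 at 3.63, 3.13 and 1.90 and then 2.24, 4.39 and 3.62. Pax7, Myf5 and Myod1 were not above background on any array. The part of muscle in the members' values was not tested.

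The genes whose pattern over the 6 tumors was most like that of each widely spread member were found by the root-mean-square difference of centred log2 ratios. For Afp they were Crisp1 (0.32), C4bp, a complement regulator of liver (0.34), Proc, the anticoagulant protein C (0.40), and Igfbp1 (0.46). Their ratios in tumor 313 were -5.23, -4.10, -2.44 and -4.02, and all were above 1.9 elsewhere. For H19 they were Cdh1, E-cadherin (0.25), Syngr1 (0.30), Mmp8, a neutrophil collagenase (0.33), and Fbxo32, a ubiquitin ligase of muscle wasting (0.33), each highest in tumor 313. For Dlk1 they were Klhl7 (0.11), Slc8b1, Dok3 and Pcdh19 (each 0.15). The probes of these last 4 all lay in the lost area of tumor 312, which held 2138 of the 15804 genes tested, and their values there, -0.38 for Klhl7 and -0.17 for Dok3 among them, were the lowest of the 6 tumors, as for Dlk1. The part of the lost area in this likeness was not tested. All of these distances describe 6 samples.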

How the data were processed

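RNA of 6 tumors was measured against a reference labelled blood, 1 array per tumor. Per the file headers, Agilent Feature Extraction 9.1.3.1 made the deposited scanner output: a mean pixel intensity and a median local background intensity per spot and dye, not normalized, and processed intensities already background-subtracted and dye-normalized. The authors' deposited value table gives log10 ratios. The largest difference to the scanner's own log ratio of processed Cy5 over Cy3 was 0.

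In limma 3.58.1 (R 4.3.3), intensities were corrected with normexp (offset 50) and log2 ratios normalized within arrays by loess, in which controls (1639 of 45018 spots) and outlier-marked spots had no weight. Neither kind was used further. The remaining spots of each probe were averaged. Signals of single dyes used loess and Aquantile scaling. Probes were named through RefSeq (GRCm38.p6): 23374 of 41174 by accession, 6733 by symbol, 2915 by an older symbol, and the rest as printed. The probe of highest mean log intensity stood for a gene. Days were compared by lmFit and eBayes (2-sided; Benjamini-Hochberg at 0.05) over the 15804 genes with Cy5 flagged above background on 3 or more arrays. The fit was tested on simulated data with 50 genes changed at each size. It recovered 28% of changes of 1 log2 unit, 64% of 2, 94% of 4 and 100% of 6, with 8 false calls. Changes of 1 or 2 log2 units can thus often be missed.

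The area of lost signal was found from the Cy3 signal of each spot against the other arrays: the median over a window reaching 8 rows and 4 columns to each side lay below -1 on the log2 scale. Promoter windows are the 250 bases before RefSeq gene starts.

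The text names the 7 members. In each related list it names the 2 genes of largest difference between the days, the 2 of largest range and any past the threshold. For members spanning over 2 log2 units it names the 4 nearest genes. Gata6, Trf, Zhx2, Nr2f1 and the cell type markers named singly fall outside this rule and were named after the results were seen. Members and lists were chosen with earlier results of these data known. Alternatives covered background correction, normalization, the authors' values, the tumor dye alone, the filter on dim probes, the probes of a gene, the lost area and each tumor left out; the median of the spots of a probe was added after seeing the data.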

Additional observations from a re-analysis of the deposited data

Results flagged for a closer look

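Over the 6 tumors, Afp had its lowest ratio, -4.75, in tumor 313, far from the nearest other tumor at 2.22; the gap was 0.872 of the whole range. Dlk1 had its lowest ratio, 0.19, in tumor 312, with the nearest other at 2.37 and a gap of 0.647 of the range. Both gaps exceed Dixon's 95% critical value for 6 samples. The members were chosen with this spread known, so the value marks them for a closer look and is no test; in groups not chosen this way, chance passes it in about 1 in 20. The Dlk1 spot of tumor 312 lay in the area of lost signal on that array, and its second probe, outside the area, gave 0.56 there. All 10 Afp spots of tumor 313 lay outside any such area.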

How the results depend on the processing

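Under every alternative run, 0 members and 0 genes of the related lists passed between the days. Over all genes, 2 were higher and 7 lower. The higher count was 1 with the scanner's processed signals, 1 with the value table of the authors, 1 with tumor signal required on all 6 arrays, and 0 in the tumor dye alone. The lower count was 0 in the tumor dye alone and 0 with tumor signal on all 6 arrays. Leaving out each tumor in turn gave 0 to 3 higher and 2 to 24 lower genes, the 24 without tumor 307. In the same way the Afp difference between the days ranged from -3.75 to 0.25 and was positive without tumor 313. The Igf2 difference ranged from -0.43 to 0.25 and was positive without tumor 312 (0.01) and without tumor 313 (0.25). Of 95 alternative values of the 6 member differences, 3 changed sign; none of these differences passed in any. Of 144 alternative medians of the 9 lists, 50 moved by more than 0.1. The range was -1.56 to 0.62 for the albumin family list and -0.74 to -0.26 for the progenitor and hepatoma genes. It was -0.36 to 0.28 for the repressors of Afp and of other fetal liver genes. The contrast of tumor 313 with the others ranged from -7.60 to -6.11 for Afp, 1.62 to 2.89 for H19 and -1.68 to -0.89 for Igf2, and changed sign only for Gpc3 (-0.11 to 0.13). With median centring, the median over all genes went from 0.22 to -0.34, the mean ratio of Afp from 1.36 to 0.39 and of Gpc3 from 5.03 to 4.26. No paired analysis was possible because the tumor numbers are not shared between the days. With 3 arrays a day, the number of arrays limits the precision, and Dlk1, H19 and Mest are further limited by a reference near background.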
